A study of Sus scrofa with 24 samples.

Results

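Gamma-synuclein (SNCG) and the ubiquitin C-terminal hydrolase UCHL1 were followed in pig subcutaneous adipose tissue, beside leptin (LEP). The pair was chosen by its measured levels on these same arrays, which differed between the groups, and a probe was taken as a member when the symbol in the scanner files, or the symbol of its RefSeq accession, was SNCG or UCHL1. This gave 2 genes, with 1 probe for SNCG and 2 for UCHL1, of 4432 genes with a probe kept for the fit, and all 3 member probes were kept. LEP, the gene they were set against, had 2 kept probes.

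The tissue came from 24 pigs at 115 kg body weight, each measured on its own one-colour Agilent array (Cy3), with 8 pigs in each of 3 groups. Residual feed intake compares what a pig eats with the amount predicted from its upkeep and gain, so low values mean less feed than predicted. RFIneg were pigs with low residual feed intake and RFIpl were pigs with high residual feed intake, both fed ad libitum, and RFIplR were high residual feed intake pigs held to the feeding level of RFIneg. RFIneg against RFIpl thus sets the lines side by side with feed freely available, RFIplR against RFIpl sets the feeding levels side by side within the high line, and RFIneg against RFIplR sets the lines side by side at one feeding level. The labels give neither age nor sex, and the tissue is whole fat, so fewer cells of a type and less RNA per cell cannot be told apart.

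Gamma-synuclein is a small protein of the synuclein family, first studied in neurons and abundant in peripheral neurons and in white adipocytes. UCHL1, also called PGP9.5, cleaves ubiquitin from small adducts, helps to keep the pool of free ubiquitin, and is widely used as a stain for nerve fibres. Leptin is the hormone that adipocytes release as fat stores grow.

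A probe of UCHL1 is shown because this gene has a close relative on the array. It is set beside the probe of that relative with the best ungapped match, both taken 5′ to 3′ from the deposited scanner files. Capitals mark the bases that are the same in the matching stretch, and small letters inside that stretch mark differences.
UCHL1 probe 2: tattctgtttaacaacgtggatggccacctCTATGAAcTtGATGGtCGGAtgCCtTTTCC
UCHL3: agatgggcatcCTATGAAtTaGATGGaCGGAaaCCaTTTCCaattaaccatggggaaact
UCHL1 probe 2 shared 24 of 30 bases in that stretch with the probe of UCHL3, a hydrolase of the same family, out of 60 in each probe.

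Arrays fell into 17 bright ones, with a 75th percentile of processed intensity between 414 and 663, and 7 dim ones, between 69.4 and 94.4. The dim arrays were RFIneg 1 and 7, RFIpl 5 and 6 and RFIplR 2, 4 and 6, all from the scan day with 10 arrays. Over the kept probes, r was 0.936 to 0.991 between bright arrays and 0.768 to 0.825 between a bright and a dim one. Levels below are log2 of the processed intensity minus the 75th percentile of the array, so 0 is the brightness of the 75th percentile probe. The array RFIpl 3 stood nearer to the other groups than to its own: its mean correlation was 0.983 with the bright RFIneg and RFIplR arrays and 0.971 with the other bright RFIpl arrays, whereas each of the 5 other bright RFIpl arrays correlated more with RFIpl. Summed skeletal muscle markers stood at 10.5 on RFIpl 2 and 5.47 on RFIpl 1 against at most 5.08 on any RFIneg or RFIplR array, and summed keratinocyte markers at 5.95 on RFIpl 7 and 4.49 on RFIpl 8 against at most 1.44 there. The keratinocyte sums of RFIpl 1, 2 and 3, at 1.64, 2.36 and 1.58, also lay above 1.44. The part of these markers in the results was not tested.

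SNCG was lower in RFIpl than in both other groups, and RFIneg and RFIplR lay close together. Its probe was well above background on all 24 arrays. In RFIneg the levels of replicates 1 to 8 were 0.52, 0.35, -0.38, -0.59, 0.49, 0.19, -0.08 and -0.32. In RFIplR they were -0.20, 1.68, -0.01, 0.78, 0.14, -0.30, -0.88 and 0.23. In RFIpl they were -4.34, -1.84, 0.25, -3.61, -1.42, -1.02, -1.76 and -2.71. The groups overlapped through a single array: RFIpl 3, at 0.25, lay inside the range of the other groups, and the 7 remaining RFIpl arrays lay below every RFIneg and RFIplR array. Such a separation of these 7 arrays was found for 44 of 28606 kept probes, or 0.154%. Of the 3 lowest arrays in SNCG, RFIpl 1 (-4.34) had summed muscle markers at 5.47 and keratinocyte markers at 1.64, RFIpl 4 (-3.61) had them at 4.19 and 0.87, and RFIpl 8 (-2.71) at 3.91 and 4.49.

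The SNCG group means were 0.02 ± 0.42 in RFIneg, 0.18 ± 0.77 in RFIplR and -2.06 ± 1.47 in RFIpl (SD, n = 8 each). RFIpl also had the widest spread, with 24.2-fold between its lowest and highest pig against 2.16-fold in RFIneg and 5.88-fold in RFIplR. RFIneg exceeded RFIpl by 2.08 (SE 0.48) on the log2 scale, or 4.22-fold, and RFIplR exceeded RFIpl by 2.24 (SE 0.48), or 4.71-fold. These comparisons share the RFIpl arrays. RFIneg minus RFIplR was -0.16, with a 95% interval of -1.14 to 0.82, so the order of these groups is within their spread.

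**Figure D1:**
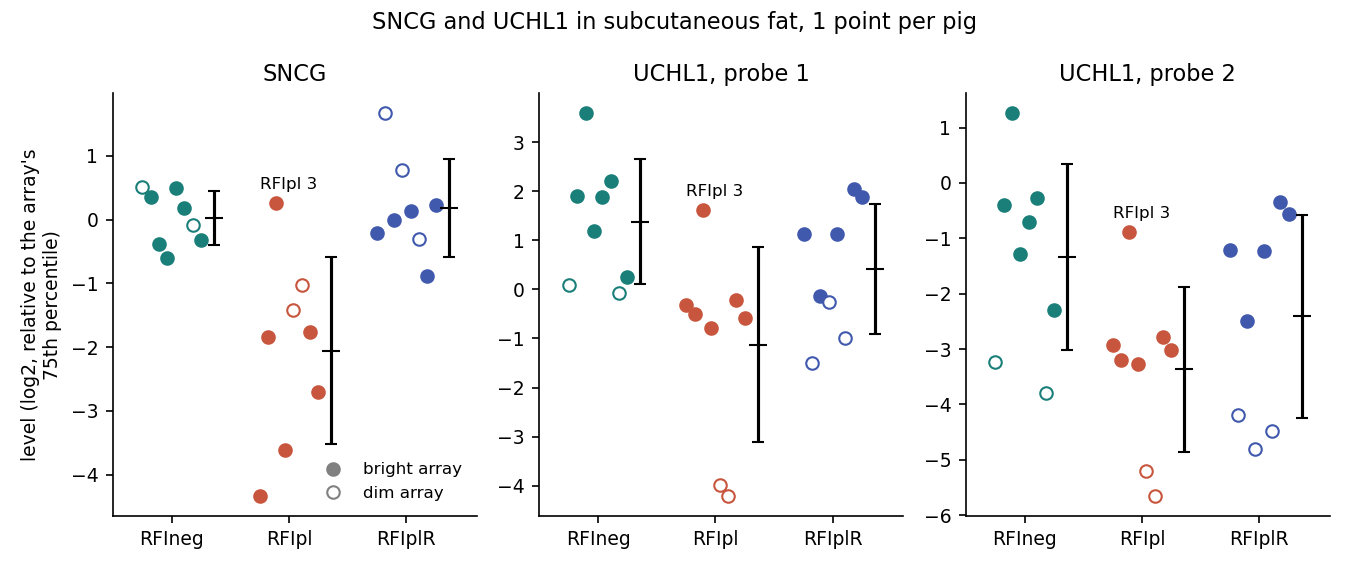
Levels of SNCG and of both UCHL1 probes in each pig, as log2 relative to the 75th percentile of the array, by group. Filled points are bright arrays and open points dim arrays, and the bars at the right of each group give its mean and SD over 8 pigs. In the SNCG panel all RFIpl points except RFIpl 3 lie below the other groups, and in the UCHL1 panels dim arrays lie low in every group.

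UCHL1 was also lowest in RFIpl, and its levels differed between bright and dim arrays as well. UCHL1 probe 1, the brighter of its probes, rose well above background on 21 arrays, of which 8 were RFIneg, 6 RFIpl and 7 RFIplR. On the bright arrays its levels in RFIneg were 1.90, 3.60, 1.18, 1.88, 2.21 and 0.25, and in RFIplR 1.13, -0.14, 1.14, 2.05 and 1.88. On the bright RFIpl arrays 1, 2, 3, 4, 7 and 8 they were -0.32, -0.50, 1.61, -0.78, -0.22 and -0.58. RFIpl 3 again stood inside the range of the other groups. The other 5 bright RFIpl arrays reached up to -0.22 (RFIpl 7), close to the lowest bright RFIplR array at -0.14 (RFIplR 3). How many kept probes part these arrays in the same way was not counted. On the dim arrays UCHL1 stood at 0.09 and -0.08 in RFIneg, at -1.49, -0.25 and -0.99 in RFIplR and at -3.98 and -4.22 in RFIpl. Both dim RFIpl values, and that of RFIplR 2, were not well above background, so they give only an upper limit.

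Over all arrays the UCHL1 probe 1 means were 1.38 ± 1.27 in RFIneg, 0.42 ± 1.32 in RFIplR and -1.12 ± 1.98 in RFIpl (SD, n = 8 each). RFIneg exceeded RFIpl by 2.50 (SE 0.74) on the log2 scale, and RFIplR exceeded RFIpl by 1.54 (SE 0.74). No fold is given over all arrays, because the values not well above background, 2 in RFIpl and 1 in RFIplR, enter these means as upper limits. RFIneg minus RFIplR was 0.96, with a 95% interval of -0.57 to 2.50, which includes no difference. On bright arrays alone the differences from RFIpl were 1.97 for RFIneg and 1.34 for RFIplR.

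UCHL1 probe 2 gave the same order of groups at a lower brightness. It was well above background on all 17 bright arrays and on none of the 7 dim ones. Its means were -1.34 ± 1.68 in RFIneg, -2.41 ± 1.84 in RFIplR and -3.37 ± 1.49 in RFIpl (SD, n = 8 each). Across the bright arrays the UCHL1 probes ran almost in parallel, with r = 0.997 and a gap of 2.31 to 2.70 between them, while across the 7 dim arrays r was 0.83 and the gap ranged from 1.22 to 4.55. On dim arrays UCHL1 thus lay near or under the background limit, whereas SNCG was above it on all 7.

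**Figure D2:**
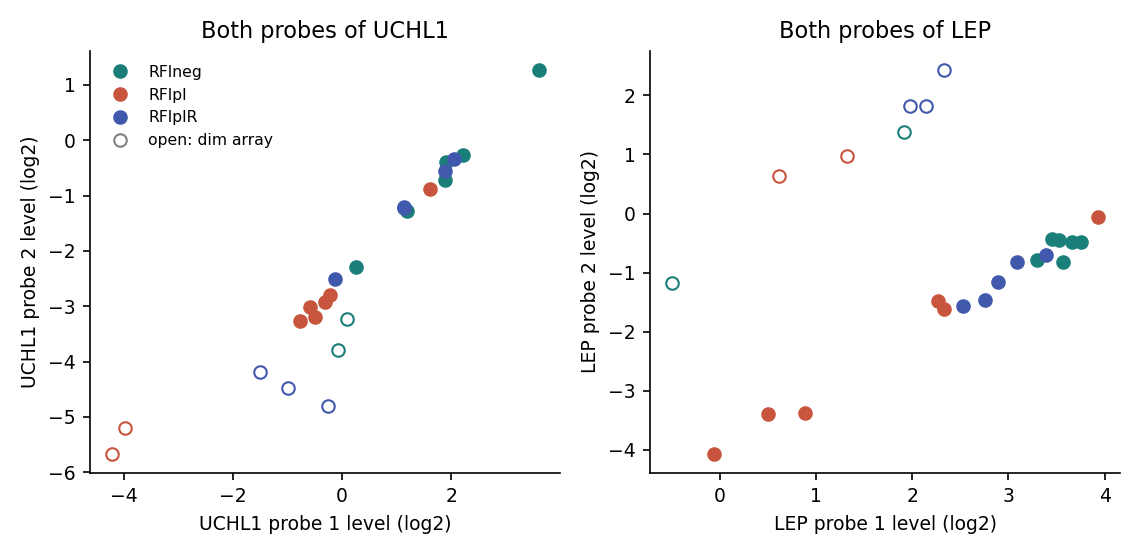
Level of probe 2 against probe 1 on each array, in log2 relative to the 75th percentile of the array, for UCHL1 on the left and LEP on the right. Colours give the group, filled points bright arrays and open points dim arrays. The bright arrays form 1 line for each gene (r = 0.997 and 0.991), and most dim arrays lie off it, on both sides for UCHL1 and above it for LEP.

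Calls are given as a description, because these contrasts served to choose the genes. In the limma fit on group means, 1 of the 3 member probes, SNCG, passed an adjusted p of 0.05 in RFIplR minus RFIpl, where 0.297% of all kept probes passed. None of the 3 passed in RFIneg minus RFIpl, where 0.206% of kept probes passed, and none in RFIneg minus RFIplR, where 0% passed. There 605 of 28606 probes had an unadjusted limma p under 0.05, against 1962 in RFIneg minus RFIpl and 2341 in RFIplR minus RFIpl. The SNCG call rested on few arrays to spare. It was kept in 5 of 24 fits that each left out 1 array (RFIneg 7, RFIneg 8, RFIpl 3, RFIpl 6 or RFIplR 6) and lost in the other 19, with differences between 1.91 and 2.57. With brightness class as a block, all 3 member probes passed in RFIneg minus RFIpl, where 6.62% of kept probes passed, and in RFIplR minus RFIpl, where 10.4% passed. RFIneg and RFIpl each held 6 bright and 2 dim arrays, so the block could not change their differences, 2.08 for SNCG and 2.50 for UCHL1. For RFIplR minus RFIpl the block gave 2.14 and 1.87.

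**Figure D3:**
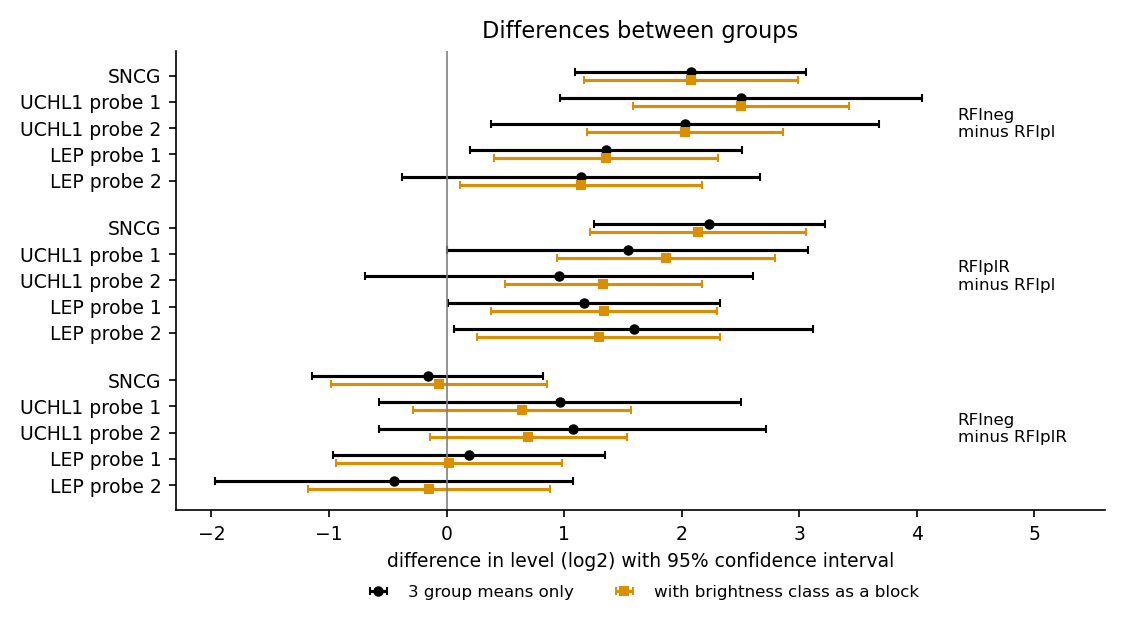
Differences between group means in log2, with 95% confidence intervals, for each probe of SNCG, UCHL1 and LEP in the 3 comparisons. Black circles come from the fit on group means and orange squares from the fit with brightness class as a block. Both differences from RFIpl lie to the right of 0 for every probe. In the fit on group means, 0 lies within the intervals of UCHL1 probe 2 in RFIplR minus RFIpl (-0.69 to 2.61) and LEP probe 2 in RFIneg minus RFIpl (-0.38 to 2.67). The intervals of RFIneg minus RFIplR all include 0.

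The direction was also looked at within batches. The scan days held 11, 10 and 3 arrays. For SNCG, RFIneg minus RFIpl was 2.29, 2.17 and 1.46 within them and RFIplR minus RFIpl was 2.02, 2.55 and 1.64. For UCHL1 probe 1 the corresponding values were 1.25, 2.30 and 4.11, and 0.78, 2.09 and 1.63. On the day with 10 arrays only RFIpl 4, RFIpl 7 and RFIplR 8 were bright, so its differences mix the brightness classes. Within slides, SNCG was on average lower in RFIpl on every slide that held RFIpl with another group. For UCHL1 probe 1, RFIplR minus RFIpl was -0.65 on slide 1 and -1.02 on slide 6, with at most 2 arrays of a group on each. On slide 6, RFIplR 2 and RFIplR 6 were dim and RFIpl 7 was bright. The UCHL1 value of RFIplR 2 was also not well above background. Leaving out RFIpl 1, 2, 7 or 8 in turn, the arrays with the highest muscle or keratinocyte markers, gave SNCG differences between 1.75 and 2.28 and UCHL1 differences between 1.62 and 2.63. Each of these fits kept the other arrays with raised markers, so they do not show the differences without all of them. Without RFIpl 3 the SNCG differences were 2.41 and 2.57 and those of UCHL1 2.90 and 1.93.

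LEP was also lowest in RFIpl. LEP probe 1 averaged 2.83 ± 1.47 in RFIneg, 2.64 ± 0.49 in RFIplR and 1.47 ± 1.30 in RFIpl (SD, n = 8 each). RFIneg exceeded RFIpl by 1.36 (SE 0.56, adjusted p = 0.567, limma) and RFIplR exceeded RFIpl by 1.17 (SE 0.56, adjusted p = 0.604, limma), neither past the threshold. With brightness class as a block the adjusted p values of limma were 0.0767 and 0.0663. LEP probe 2 gave differences of 1.14 and 1.59 from RFIpl, and the order of RFIneg and RFIplR differed between the LEP probes (RFIneg minus RFIplR 0.19 and -0.45). On bright arrays, LEP ran from 3.30 to 3.75 in RFIneg and from 2.53 to 3.40 in RFIplR, while the RFIpl arrays 1, 2, 4, 7 and 8 stood at 0.88, -0.06, 0.51, 2.27 and 2.33. RFIpl 3, which had the highest SNCG and UCHL1 of its group, had the highest LEP of all 24 arrays, at 3.94.

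Across the 17 bright arrays SNCG and LEP correlated at r = 0.815 (Spearman rho 0.779), UCHL1 and LEP at r = 0.703 (rho 0.75), and SNCG and UCHL1 at r = 0.690 (rho 0.657). These values contain the difference between the groups and the array's own scaling, and are a description. With the mean of each group removed, r was 0.649 for SNCG with LEP (permutation p = 0.11), 0.420 for UCHL1 with LEP (permutation p = 0.0662) and 0.391 for SNCG with UCHL1 (permutation p = 0.124), with rho of 0.441 (permutation p = 0.140), 0.279 (permutation p = 0.258) and 0.324 (permutation p = 0.196). The tests were two-sided with 100000 permutations within groups, and over the 6 relations computed the Benjamini-Hochberg p was 0.248 for each r of the bright arrays and 0.516 for each rho. The relation of the genes among pigs of one group was thus not past the threshold.

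Single arrays decided these values. Without the 2 arrays farthest from the median of LEP, RFIpl 2 and RFIpl 4, r was 0.890 for SNCG with LEP (permutation p = 0.0378) and 0.380 for UCHL1 with LEP (permutation p = 0.248). Without RFIneg 3 and RFIpl 4, farthest in UCHL1, r was 0.486 for SNCG with UCHL1 (permutation p = 0.134). Without RFIpl 3 alone, r fell to 0.227 for SNCG with LEP, to 0.048 for UCHL1 with LEP and to 0.0018 for SNCG with UCHL1. Among the other bright RFIpl pigs, SNCG was lowest in RFIpl 1 and RFIpl 4 and LEP in RFIpl 2 and RFIpl 4.

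**Figure D4:**
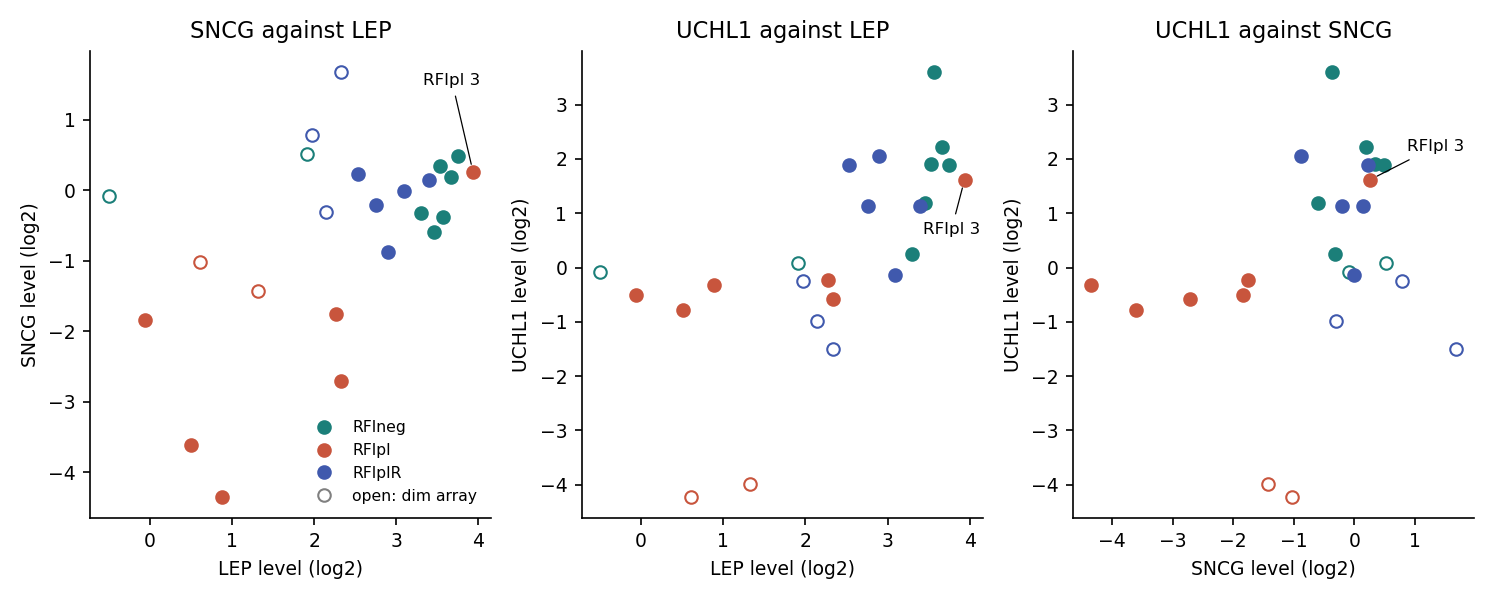
SNCG against LEP, UCHL1 against LEP and UCHL1 against SNCG, each point 1 pig, as levels in log2 relative to the 75th percentile of the array. Colours give the group, filled points bright arrays and open points dim arrays. RFIpl 3 lies among the RFIneg and RFIplR arrays in all 3 panels. The other bright RFIpl arrays lie below every bright RFIneg and RFIplR array in SNCG. In UCHL1 they reach up to -0.22 (RFIpl 7), close to RFIplR 3 at -0.14.

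On the 7 dim arrays r was 0.477 for SNCG with LEP, 0.139 for UCHL1 with LEP and 0.673 for SNCG with UCHL1. With group means removed these were 0.279, 0.038 and -0.319, with exact permutation p of 0.458, 0.792 and 0.958. Those groups allow 24 arrangements, so p could not go below 0.0417. No r over bright and dim arrays together is given without removing the mean of each brightness class, since these arrays form separate clusters.

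The genes most like each member were ranked by Pearson r over 24 arrays after the mean of each brightness class was removed, among 4411 genes. For SNCG the first 5 were FAM149A (r = 0.912), SDR16C5 (0.902), a dehydrogenase that acts on retinol, KCTD17 (0.874), PTPN21 (0.870), a protein tyrosine phosphatase, and SGCA (0.868), the alpha-sarcoglycan of the muscle membrane complex. For UCHL1 they were USF2 (r = 0.901), a helix-loop-helix transcription factor, SNX16 (0.889), a sorting nexin of endosomes, MSMB (0.881), CTSA (0.874), a lysosomal carboxypeptidase, and TMBIM6 (0.867), a protein of the endoplasmic reticulum membrane. LEP came 73rd for SNCG (r = 0.749) and 615th for UCHL1 (r = 0.508). UCHL1 came 213th for SNCG and SNCG 266th for UCHL1, at r = 0.653. These correlations include the difference between groups, and those of UCHL1 include its values not well above background on dim arrays. Of these 10 genes, SDR16C5 had differences closest in size to those of SNCG, at 2.17 for RFIneg minus RFIpl and 1.93 for RFIplR minus RFIpl. SNX16 had smaller differences of 0.68 and 0.64 with an SE of 0.14 each. It passed the threshold in both comparisons (adjusted p = 0.0348 and 0.0445, limma), and none of the other genes in this group of 10 passed in either.

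Relatives of the members are given by their counts, with those over all genes. Of 14 listed genes of synucleins, their partners and presynaptic proteins, 6 besides SNCG were measured, and none passed in either direction in any comparison, with or without the brightness block. Their median difference was 0.05 for RFIneg minus RFIpl and -0.14 for RFIplR minus RFIpl, against 0.03 and 0.01 over all 4432 genes. Over all 4432 genes 8 were called higher and 3 lower in the first comparison and 9 and 5 in the second, and with the block 249 and 82, and 339 and 192. At such shares few or no calls among 6 genes are in the range of the background, so the count says nothing particular about these genes. SNCAIP, a synuclein partner, stood at 0.06 (SE 0.21) and -0.27 (SE 0.21). Beta-synuclein (SNCB) was not kept, being well above background on at most 13 arrays.

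Of 23 listed ubiquitin hydrolases, ubiquitin genes and related enzymes, 11 besides UCHL1 were measured and none passed in either direction, with or without the block, a count also in the range of the share over all genes. Their median difference was 0.13 for RFIneg minus RFIpl and 0.01 for RFIplR minus RFIpl. USP8, a ubiquitin protease of endosomes, stood at 0.16 (SE 0.14) and 0.23 (SE 0.14), and OTUB1, another deubiquitinase, at -0.04 (SE 0.34) and -0.52 (SE 0.34). The brightest probe of UCHL3 stood at 0.21 (SE 0.46) and -0.13 (SE 0.46).

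Both members are known from nerve, so nerve and Schwann cell markers are given beside them. Of 15 listed nerve fibre markers, 6 had a probe and 3 were kept (STMN2, CHGB and MAP2), and none passed in any comparison. MAP2, a microtubule protein of neurons, was at 0.48 (SE 0.40) for RFIneg minus RFIpl and 0.40 (SE 0.40) for RFIplR minus RFIpl, and CHGB, a granin of secretory vesicles, at 0.32 (SE 0.22) and 0.19 (SE 0.22). The summed level of the 3 nerve markers ran from -1.60 to -0.10 in RFIneg, from -1.68 to -0.36 in RFIpl and from -1.49 to -0.63 in RFIplR, so the groups overlapped. Of 13 Schwann cell markers 4 were kept, none passed in the fit on group means, and their median differences were -0.49 and -0.89, the opposite sign to SNCG and UCHL1. With the brightness block 1 of the 4 was lower in RFIplR than in RFIpl, against 192 lower of all 4432 genes. The part of nerve in the levels of SNCG and UCHL1 was not tested.

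Adipocyte genes marked the tissue as labelled: 16 of 20 listed genes were kept, all 16 well above background on 24 arrays. Their summed level without LEP was 10.3 to 10.8 in RFIneg, 9.96 to 10.7 in RFIpl and 10.2 to 10.7 in RFIplR. In the fit on group means none of the 16 passed, with median differences of 0.25 for RFIneg minus RFIpl and 0.21 for RFIplR minus RFIpl. AQP7, the glycerol channel of adipocytes, stood at 0.79 (SE 0.21) and 0.57 (SE 0.21), and CEBPA, an adipogenic transcription factor, at 0.14 (SE 0.16) and 0.42 (SE 0.16). With the brightness block, 5 of 16 were higher in RFIneg than in RFIpl and none lower, against 249 higher and 82 lower of 4432 genes. Those 5 were AQP7, the hormone-sensitive lipase LIPE, the droplet proteins CIDEC and PLIN1, and the hormone ADIPOQ, with differences from 0.27 to 0.79, and they are named because their values had been seen. In RFIplR minus RFIpl the block called 3 of the 16 higher and none lower, against 339 and 192 of 4432 genes. The differences with the block were positive for 14 of the 16 in RFIneg minus RFIpl and 12 in RFIplR minus RFIpl. The rest were negative.

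In the fit with the brightness block some markers of other cells in fat passed as well, while none of them passed in the fit on group means. With the block, 249 of all 4432 genes were called higher and 82 lower in RFIneg minus RFIpl. In RFIplR minus RFIpl these counts were 339 and 192. No marker list was tested against these shares. Of 7 measured fibroblast and preadipocyte markers, 2 were lower in RFIneg than in RFIpl, the collagen COL1A2 (-0.72) and the matrix protein POSTN (-0.98), and COL1A2 was also lower in RFIplR than in RFIpl (-0.64), opposite in sign to SNCG and UCHL1. Of 7 endothelial markers, VWF was higher in RFIneg than in RFIpl (0.50), PECAM1 (0.50) and CDH5 (0.52) were higher in RFIplR than in RFIpl, and KDR was lower there (-0.74). None of 5 macrophage markers passed. The summed fibroblast markers ran from 7.38 to 8.94 in RFIneg, from 8.11 to 8.94 in RFIpl and from 6.91 to 8.88 in RFIplR. The summed endothelial markers ran from 5.97 to 6.52, from 5.35 to 6.24 and from 5.87 to 6.70 in the same order, and those of macrophages from 2.31 to 3.85, from 2.76 to 4.36 and from 2.25 to 4.24. These sums overlapped between groups. The genes named here were chosen after their values were seen, and the part of these cells in the levels of SNCG and UCHL1 was not tested.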

How the data were processed

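The deposited scanner files hold, per the file headers, spot intensity that Agilent Feature Extraction 10.7.3.1 background-subtracted and detrended. The deposited value table holds log2 processed intensity centred on the median of each array, found by setting it against the scanner files (SD of the difference at most 4.5e-10). Its direction is that of the scanner files. Per the submitters' processing notes, R 2.10.0 was used. The sources used here do not say how the table's 24675 probes were chosen.

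Levels were log2 of the processed intensity minus the 75th percentile of each array. Of 43603 probes, 28606 well above background on at least 6 arrays of a group, and missing on no more than 6, were kept. A symbol was found for 7403 probes by accession, for 1501 by gene identifier and for 3578 in the files, 6 had several, and 31115 had none. The RefSeq gene table served for names only. A gene is given at its kept probe with the highest mean signal, called probe 1.

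Comparisons came from one limma 3.58.1 fit (R 4.3.3) over 24 arrays, adjusted by Benjamini-Hochberg over all kept probes at a threshold of 0.05, and two-sided. The p-values of limma set each difference against the spread within groups, with 1 array per pig. In the fit on group means that spread also holds the difference between bright and dim arrays. The number of arrays limits the precision. Correlations used Python 3.11.15 and scipy 1.17.1. The fit and the permutation test were tested on simulated data. The genes named were the members, LEP, listed genes past the threshold or else the 2 with the smallest p in RFIplR minus RFIpl, and the 5 genes most like each member.

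Members, lists and tests were chosen with earlier results of these data known. Some listed genes are not reported here by name. The labels do not say whether replicate numbers pair the pigs, and the arrays were taken as unpaired. No spot was saturated.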

Additional observations from a re-analysis of the deposited data

Results flagged for a closer look

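Within the RFIneg group, 1 array lay far from the other 7 for each LEP probe. LEP probe 1 stood at -0.50 on RFIneg 7, a dim array, against 1.91 on the next lowest array. LEP probe 2 stood at 1.38 on RFIneg 1, also a dim array, against -0.43 on the next highest. Both gaps exceed Dixon's 95% critical value for 8 arrays, which chance passes in about 1 in 20 groups. The test took bright and dim arrays together. On the dim RFIpl and RFIplR arrays LEP probe 2 ran from 0.64 to 2.43, so RFIneg 1 lay within their range. RFIneg 7 stood at -1.18 on LEP probe 2, below that range. No array was flagged for SNCG or UCHL1. The offset between the LEP probes was 4.05 in the median over bright arrays and 0.32 over dim ones.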

How the results depend on the processing

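SNCG and UCHL1 were lower in RFIpl than in RFIneg and RFIplR under all 16 other settings and with each array left out in turn. Among these settings the replicate block could not change any difference. The brightness block over all arrays could not change RFIneg minus RFIpl. SNCG differences ran from 1.43 to 2.67 (RFIneg minus RFIpl, past the threshold in 4 of 16) and from 1.51 to 2.60 (RFIplR minus RFIpl, 9 of 16), and with 1 array left out from 1.75 to 2.41 and from 1.91 to 2.57. UCHL1 was past it in 3 and 2 of 16. Its lowest values, under normexp, were 1.51 and 0.85, against 2.50 and 1.54 in the fit on group means, and it ran from 2.06 to 2.90 and from 1.10 to 1.93 with 1 array left out. On dim arrays only, where RFIpl gave no UCHL1 signal well above background, UCHL1 differed by 4.11 and 3.19. Normexp correction gave the lowest SNCG values as well and put the median of all probes at 0.20 in RFIplR minus RFIpl, against 0.01. The cause of these differences was not tested.

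LEP passed with array weights, at 1.84 and 1.29, and with the brightness block and RFIpl 3 left out, added after the data were seen, at 1.67 and 1.63. In RFIneg minus RFIpl it was -0.26 on dim arrays only. With 1 array left out it ran from 1.14 to 1.84 and from 0.95 to 1.52.

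The permutation p of the relations under other settings were not adjusted. SNCG with LEP had such a p under 0.05 without the 2 arrays farthest in LEP (r = 0.890). Its r ran from 0.227 to 0.880 with 1 array left out. UCHL1 with LEP had an unadjusted permutation p under 0.05 under normexp (r = 0.442) and median scaling (0.431). Its r ran from 0.048 to 0.494 with 1 array left out. SNCG with UCHL1 ran from 0.0018 to 0.525. With group means kept these were 0.815, 0.703 and 0.690, which contain the group difference the genes were chosen by and are no test.

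Called probes numbered 59 in RFIneg minus RFIpl and 85 in RFIplR minus RFIpl. They were 1895 and 2963 with the brightness block, 3399 and 3671 with RFIpl 3 also left out, 2952 and 2756 with array weights, 297 and 954 on bright arrays, 0 and 0 on dim arrays, 0 and 25 with slide as a block, 0 and 4 under normexp, 3 and 20 under median scaling, 2 and 38 without the filter, and 0 and 26 with only the 2 groups compared. They were 39 in the first comparison in the deposited table, and in the second 258 with scan day as a block and 132 over probes above background on all arrays. With 1 array left out they ran from 1 (without RFIpl 8) to 284 (without RFIpl 3) and from 22 (without RFIpl 1) to 296 (without RFIpl 3). In RFIneg minus RFIplR, 4 passed with array weights.

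Same-numbered arrays of different groups correlated at r from -0.26 to 0.32, over 0.1 in 4 of 24 pairs. Those of different numbers correlated at -0.27 to 0.32, over 0.1 in 34 of 168 pairs. These values cannot settle whether the numbers pair the pigs. With the replicate block, SNCG in RFIplR minus RFIpl was 2.24 and no longer past the threshold, and 0, 2 and 0 probes passed. Each number held 1 array of each group, so this block could not change a member's difference, only its SE.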
